A study of Mus musculus with 10 samples.

Results

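The genes described here are 10 genes of MHC class I antigen presentation: H2-K1, B2m, Tap1, Tap2, Tapbp, Psmb8, Psmb9, Psmb10, Nlrc5 and Erap1. They were chosen by name, each stood for by the transcript cluster with the highest mean intensity among those with its symbol, out of 23360 genes on the array. All 10 passed the filter on low intensities, as did 16352 of the 23360 genes. The cells were 10 lines of B16OVA, a B16 melanoma of the C57BL/6 strain made to express the model antigen ovalbumin (OVA), and the RNA of each line was hybridised to 1 Affymetrix mouse gene array. One line was the parent, and the others came from tumours: 3 NIMM lines (1, 3 and 4) from naive B6 mice, 3 IMM lines (1, 2 and 8) from B6 mice immunized with OVA, and 3 GKO-IMM lines (1, 2 and 3) from mice deficient in IFN-γ and immunized with OVA. On re-challenge of OVA-immunized mice the IMM lines grew progressively, unlike the NIMM and GKO-IMM lines, and the arrays were made to look for what lets the IMM lines resist host immunity. Naive mice without IFN-γ gave no line, so host IFN-γ deficiency and immunization cannot be told apart between GKO-IMM and NIMM. The labels do not say whether the lines of a group came from separate mice or were cloned, so p-values measure the spread between lines.

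MHC class I molecules show peptides from inside the cell to CD8+ T cells. The proteasome cuts proteins, the TAP transporter carries the peptides into the endoplasmic reticulum, tapasin and other chaperones load them, and the complex of heavy chain, β2-microglobulin and peptide moves to the cell surface. IFN-γ is known to induce most of these genes, and B16 melanoma is known for low class I levels that IFN-γ can raise. In C57BL/6 mice H2-K1 encodes the Kb heavy chain, the molecule that presents the dominant OVA peptide to T cells.

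H2-K1 (chr17:33996012-34000619, minus strand), Tapbp (chr17:33919478-33929290), Psmb9 (chr17:34182030-34187330), Tap1 (chr17:34187556-34197225), Psmb8 (chr17:34198195-34201454) and Tap2 (chr17:34204479-34216321) lie in the MHC of chromosome 17 in build GRCm38. B2m (chr2:122147687-122153082), Psmb10 (chr8:105935728-105938392), Nlrc5 (chr8:94434335-94527272) and Erap1 (chr13:74639573-74693205) lie elsewhere. The promoter windows of 4 members are shown because class I promoters are known targets of interferon-induced factors, NF-kappaB and the CCAAT-binding factor NF-Y, whose genes are described below. Each window runs from 250 bases before to 50 after a RefSeq start site (GRCm38.p6), with motif matches in capitals. The H2-K1 window is chr17:34000284-34000583 on the minus strand, and RefSeq lists a second start site for it. The B2m window is chr2:122147437-122147736, the Tap1 window chr17:34187306-34187605 and the Erap1 window chr13:74639603-74639902, all on the plus strand. The H2-K1 and Erap1 windows lie within the gene spans given above, which begin upstream of the start sites used.
H2-K1: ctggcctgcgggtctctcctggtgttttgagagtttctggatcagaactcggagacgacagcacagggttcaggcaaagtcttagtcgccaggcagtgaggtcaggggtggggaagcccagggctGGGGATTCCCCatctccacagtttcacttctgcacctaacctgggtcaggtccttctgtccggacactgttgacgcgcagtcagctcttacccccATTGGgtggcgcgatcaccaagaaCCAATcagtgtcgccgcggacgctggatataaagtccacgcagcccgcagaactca
B2m: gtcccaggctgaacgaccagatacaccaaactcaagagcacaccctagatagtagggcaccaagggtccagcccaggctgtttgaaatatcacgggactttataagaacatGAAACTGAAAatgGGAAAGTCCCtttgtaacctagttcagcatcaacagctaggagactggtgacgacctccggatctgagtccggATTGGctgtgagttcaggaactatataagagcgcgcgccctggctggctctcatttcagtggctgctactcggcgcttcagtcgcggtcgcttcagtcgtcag
Tap1: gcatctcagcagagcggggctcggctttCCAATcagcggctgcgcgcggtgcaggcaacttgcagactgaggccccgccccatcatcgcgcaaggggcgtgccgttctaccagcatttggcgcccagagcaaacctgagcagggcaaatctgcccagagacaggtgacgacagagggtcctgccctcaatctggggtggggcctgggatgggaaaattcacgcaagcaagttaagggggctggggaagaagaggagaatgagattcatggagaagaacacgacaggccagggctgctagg
Erap1: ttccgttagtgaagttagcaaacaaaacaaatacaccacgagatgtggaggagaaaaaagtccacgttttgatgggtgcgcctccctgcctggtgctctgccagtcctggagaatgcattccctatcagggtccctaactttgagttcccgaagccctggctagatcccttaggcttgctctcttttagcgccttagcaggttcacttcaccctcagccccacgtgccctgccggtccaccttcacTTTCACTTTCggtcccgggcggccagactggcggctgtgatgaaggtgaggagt

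Windows were given for 8 of the 10 members; Tap2 and Nlrc5 are named only. The core of the interferon-stimulated response element (GAAANNGAAA, or TTTCNNTTTC on the other strand) was found in 2 of the 8, B2m at -139 from the start site and Erap1 at -4, and in 3.43% of all 32817 windows. Only these exact letters were counted. Near matches, such as tttcacttct in the H2-K1 window, were not, so a window without a match may still hold a variant of the element. A CCAAT box (CCAAT or ATTGG) was found in 5 of the 8, H2-K1, B2m, Tap1, Tapbp and Psmb9, against 37.4% of all windows; the Tap1 and Psmb9 matches are the same bases, in the stretch that their windows share. An NF-kappaB site was found in 2, H2-K1 at -124, where matches on both strands overlap, and B2m at -126, against 8.46%. The GAS element (TTCNNNGAA, the same on both strands) was found in 1, Psmb8 at -97, against 8.29%. Tap1 and Psmb9 are read in opposite directions from start sites with 225 bases between them, and their windows share 275 bases. These matches are letters in a window, not measured binding sites.

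The lines kept the melanocyte markers. All 7 B16 markers (Tyr, Tyrp1, Dct, Pmel, Mlana, Mitf and Sox10) lay between 565 and 8362, and their summed intensity was 27948 in the parent and between 26867 and 29293 in the other lines. The leukocyte markers Ptprc, Cd3e, Cd8a, Adgre1 and Lyz2 were under the filter, and 5 of 10 passed it. The array medians lay between 31.9 and 32.5, and the lowest intensities were near 17.3, so dim genes sit on a background that understates their folds; the number of arrays limits the precision. One line stood apart from its label. On principal component 1 of the 9 tumour-derived lines, with 40.6% of the variance, NIMM 4 lay at 14.7 beside the GKO-IMM lines (9.58 to 11.1), and NIMM 1, NIMM 3 and the IMM lines lay between -10.4 and -7.86. Without NIMM 4 the count of members that passed was 0 of 10 in every comparison, and values without it stand beside the members with the largest differences.

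H2-K1, the heavy chain gene, varied the most of the 10 members. Its intensity was 57.9 in the parent, 62.7, 70.3 and 92.9 in NIMM 1, 3 and 4, 106.0, 63.4 and 85.5 in IMM 1, 2 and 8, and 108.1, 85.9 and 84.8 in GKO-IMM 1, 2 and 3. NIMM 4, IMM 1 and GKO-IMM 1 were the highest of their groups, the parent was below every line, and all 3 groups overlapped. Among the 9 tumour-derived lines the highest value was 1.73-fold the lowest, with an SD of 0.29 on the log2 scale, at percentile 97.9 of the SDs of all genes tested. The group means were 6.21 ± 0.29 for NIMM, 6.38 ± 0.37 for IMM and 6.53 ± 0.20 for GKO-IMM (log2 intensity, SD, n = 3 lines each). The array is bulk RNA, so fewer cells with a transcript and less of it per cell cannot be told apart. Class I heavy chain genes resemble one another, and whether the H2-K1 probes also bind related transcripts was not tested.

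B2m, the invariant light chain that every class I heavy chain needs, was steady. Its intensity was 3828 in the parent, 4186, 4054 and 4442 in the NIMM lines, 4581, 4006 and 4187 in the IMM lines, and 4266, 4117 and 4137 in the GKO-IMM lines. The IMM lines spanned the values of the other 6, and the SD over the 9 lines was 0.06, at percentile 11.3 of all genes tested. B2m was among the brightest genes (percentile 99.8 of mean intensity), and whether the array understates differences at that level was not tested.

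The TAP transporter subunits showed small differences. Tap1 stood at 58.6 in the parent, 71.7, 66.4 and 74.5 in the NIMM lines, 86.1, 77.7 and 68.3 in the IMM lines, and 65.3, 71.7 and 64.4 in the GKO-IMM lines. IMM 1 and IMM 2 were its highest lines, and IMM 8 lay among the others. Tap2 lay close to the filter, which was at an intensity of 26.7, in every line (25.6 to 29.1; 25.8 in the parent), and its GKO-IMM lines (25.6 to 26.4) were just below its NIMM lines (26.6 to 28.1). Tapbp encodes tapasin, which bridges TAP and the empty heavy chain. It stood at 277 in the parent, 210, 198 and 236 in the NIMM lines, 219, 212 and 183 in the IMM lines, and 228, 236 and 231 in the GKO-IMM lines. The IMM lines lay below the GKO-IMM lines, and NIMM 4 lay among the latter. A second transcript cluster of Tapbp, dimmer, did not follow that order: it was 50.6, 56.1 and 46.8 in the IMM lines and 55.4, 52.8 and 60.1 in the GKO-IMM lines.

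Psmb8, Psmb9 and Psmb10 encode the catalytic subunits that replace those of the constitutive proteasome in the immunoproteasome. Psmb9 stood at 33.1 in the parent, 32.0, 33.8 and 36.6 in the NIMM lines, 29.8, 31.7 and 29.0 in the IMM lines, and 29.0, 29.4 and 29.8 in the GKO-IMM lines. Every line from an immunized host was below every NIMM line, with a gap of less than 1 intensity unit between NIMM 1 and IMM 2. Psmb8 ranged from 32.6 to 38.0 and Psmb10 from 124 to 149 over the 9 lines, and the groups of both overlapped. Nlrc5, the transactivator of class I genes, was nearly flat. It stood at 35.9 in the parent, 34.8, 34.6 and 35.2 in the NIMM lines, 34.1, 32.7 and 33.7 in the IMM lines, and 35.5, 34.7 and 36.4 in the GKO-IMM lines. The 3 IMM lines were its lowest, with an SD over the 9 lines of 0.04, at percentile 2.46 of all genes tested. Nlrc5 was dim, near the array medians of 31.9 to 32.5, where the background understates differences, and the percentile compares genes of all intensities. Erap1, the endoplasmic reticulum aminopeptidase that trims peptides to length, stood at 51.8 in the parent, 59.0, 62.7 and 73.2 in the NIMM lines, 61.2, 66.6 and 65.4 in the IMM lines, and 74.2, 68.2 and 69.7 in the GKO-IMM lines. The GKO-IMM lines and NIMM 4 were its highest, and the parent was below every line.

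**Figure D1:**
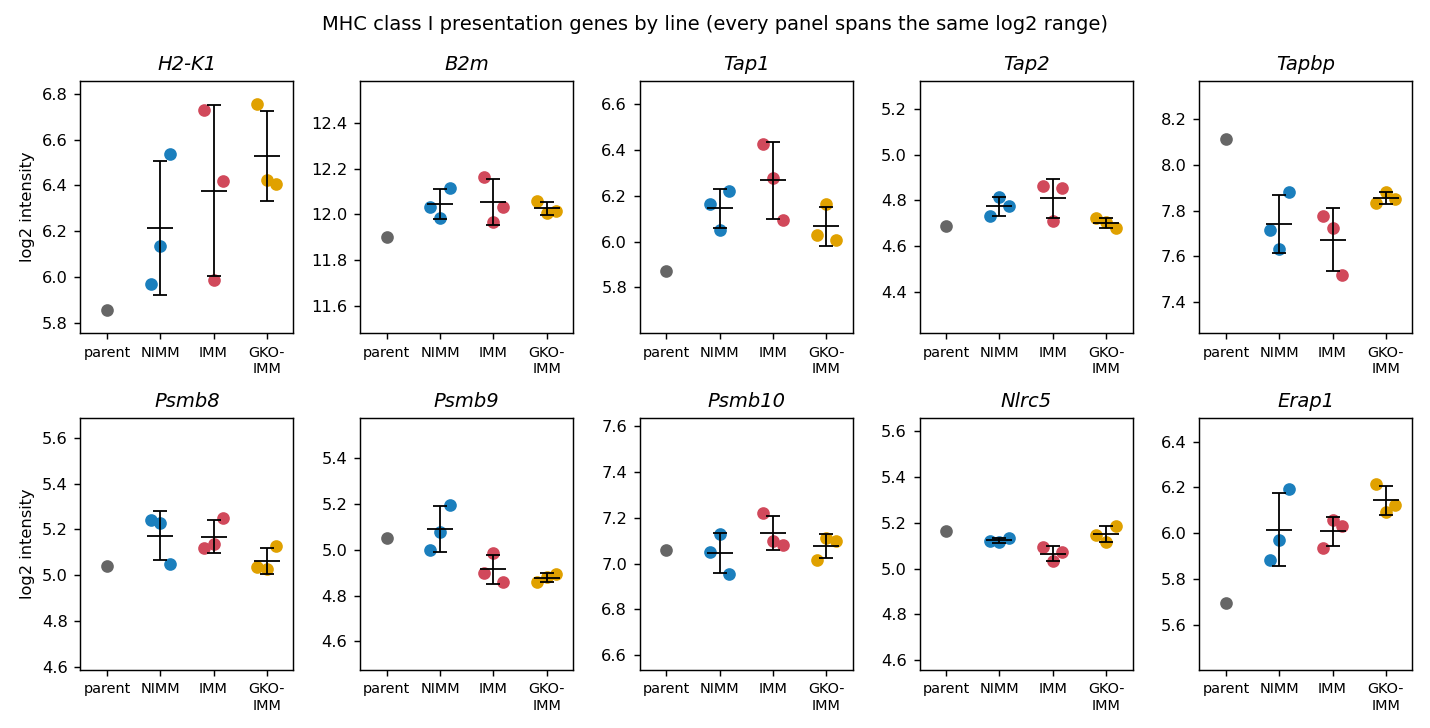
Log2 intensity of the 10 class I presentation genes (vertical axis, each panel spanning the same number of log2 units) in the parent and in the NIMM, IMM and GKO-IMM lines; points are lines, and bars are the group mean ± SD (n = 3 lines). H2-K1 spread the most within groups, B2m and Nlrc5 were nearly level, and Psmb9 was higher in the NIMM lines than in every IMM and GKO-IMM line.

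The first comparison, IMM with NIMM lines, asked whether growth in an immunized host with IFN-γ went with a change in class I genes. None of the 10 members passed limma's moderated test (Benjamini-Hochberg adjusted p under 0.05, two-sided), where 0.428% of all genes tested did. The lowest adjusted p was that of Psmb9, which was lower in the IMM lines by -0.18 ± 0.07 (log2 difference with its SE, 3 lines in each group, adjusted p = 0.276). H2-K1 differed by 0.16 ± 0.18 and Tap1 by 0.12 ± 0.09 (adjusted p = 0.722 and 0.552), and B2m by 0.01 ± 0.07. Of the members, 2 of 10 (Psmb9 and Nlrc5) did not overlap between the groups, against 18.6% of all genes. At an unadjusted p under 0.05 there was 1 of 10, against 14.1% of all genes, and the members' median difference was 0.0029 against 0.02 for all genes. The 95% intervals leave room for differences. The widest, that of H2-K1, ran from -0.24 to 0.57, or from 0.85-fold to 1.48-fold, and that of B2m from 0.91-fold to 1.11-fold. The SEs and intervals here and below use limma's moderated spread, which is drawn toward that of all genes. For H2-K1, which varied more than most genes, they are narrower than its own lines alone would give. Without NIMM 4 H2-K1 was at 0.32 (adjusted p = 0.438) and Psmb9 at -0.12 (adjusted p = 0.423).

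IMM and GKO-IMM lines both came from immunized mice, and host IFN-γ was present for the former alone. Again 0 of 10 members passed by limma, against 1.17% of all genes. Tap1 was higher in the IMM lines by 0.20 ± 0.09 (adjusted p = 0.269) and Tapbp lower by -0.18 ± 0.08 (adjusted p = 0.287); these were the 2 members under 0.05 unadjusted, a level reached by 17.2% of all genes. H2-K1 was at -0.15 ± 0.18, Erap1 at -0.13 ± 0.08 and B2m at 0.03 ± 0.07. Tapbp, Nlrc5 and Erap1, 3 of 10, did not overlap between the groups, against 25.8% of all genes, and all 3 were lower in the IMM lines. The 95% intervals ran at most to 1.31-fold up (Tap1) and 1.47-fold down (H2-K1). The medians were 0.03 for the members and 0.01 for all genes.

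Between GKO-IMM and NIMM lines the hosts differed in both immunization and IFN-γ. No member passed by limma, against 0.122% of all genes, and 1 of 10 was under 0.05 unadjusted, against 13.9%. H2-K1 had the largest difference of the members in any pair of groups, 0.31 ± 0.18 higher in the GKO-IMM lines, with a 95% interval from -0.09 to 0.72 (0.94-fold to 1.64-fold; adjusted p = 0.471). Psmb9 was lower by -0.21 ± 0.07 (adjusted p = 0.205), Erap1 was at 0.13 ± 0.08 (adjusted p = 0.512) and Tapbp at 0.11 ± 0.08. Psmb9 and Tap2, 2 of 10, did not overlap between the groups, against 19.5% of all genes. Without NIMM 4, Erap1 was at 0.22 (adjusted p = 0.0866), H2-K1 at 0.48 (adjusted p = 0.125), Tapbp at 0.18 (adjusted p = 0.201) and Psmb9 at -0.16 (adjusted p = 0.167). No member passed in that setting either, where 1264 genes did. Each group serves in 2 of these paired comparisons, so these differences are not independent of one another.

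**Figure D2:**
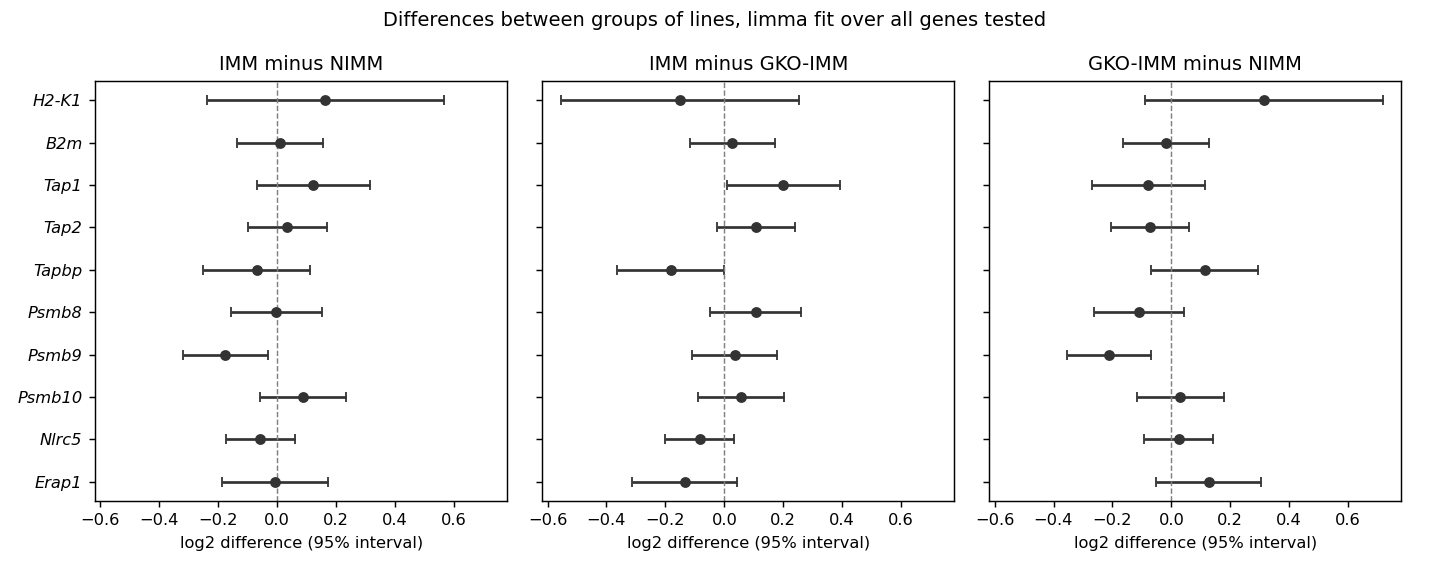
Log2 differences (horizontal axis) of the 10 members between the groups of lines, with 95% intervals from limma's fit over all genes tested; the dashed line marks 0. The intervals of H2-K1 were the widest and included 0 in each panel, and none of the 10 passed after adjustment over all genes.

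The contrast that follows growth on re-challenge set the IMM lines against the mean of the NIMM and GKO-IMM lines. It called 0 of 10 members by limma, with 0 under 0.05 unadjusted, against 0.807% and 16.4% of all genes. Tap1 came closest at 0.16 ± 0.08 (95% interval -0.0050 to 0.33, adjusted p = 0.317), and H2-K1 was at 0.0058 ± 0.16. Nlrc5 was the 1 member of 10 whose IMM lines lay on 1 side of the 6 others, against 6.79% of all genes, at -0.07 ± 0.05 (adjusted p = 0.47). Lines from immunized hosts together, against NIMM, called 0 of 10 members, against 0.349% of all genes, and 1 of 10 under 0.05 unadjusted, against 12.4%. Psmb9 was at -0.19 ± 0.06 (0.80-fold to 0.95-fold, adjusted p = 0.21) and alone among the members had no overlap, against 6.18% of all genes. H2-K1 was at 0.24 ± 0.16 (adjusted p = 0.571). Without NIMM 4 Tap1 was at 0.18 and H2-K1 at 0.09 in the first of these contrasts (adjusted p = 0.27 and 0.808), and H2-K1 was at 0.40 and Psmb9 at -0.14 in the second (adjusted p = 0.202 and 0.222). Without IMM 1, the highest line of Tap1, that gene was at 0.08 in the first of these contrasts, 0.04 in IMM minus NIMM and 0.12 in IMM minus GKO-IMM. The F test across the 3 groups called 0 of 10, against 1.02% of all genes, with Psmb9 the lowest (adjusted p = 0.183).

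The parent was set beside the tumour-derived lines without a test, since it had 1 array. It lay below all 9 lines for 4 of 10 members, H2-K1, B2m, Tap1 and Erap1, where it did so for 13.5% of all genes tested. The mean of the 9 lines was 1.43-fold the parent for H2-K1, 1.28-fold for Erap1, 1.22-fold for Tap1 and 1.10-fold for B2m, and the lowest line exceeded the parent by less: 1.08-fold for H2-K1 and 1.14-fold for Erap1. Tapbp was the 1 member for which the parent lay above all 9 lines, as it did for 12.4% of all genes, at 1.28-fold the mean of the 9. The other 5 members lay within the range of the lines. Tap2 and Nlrc5 were within by a single line: without GKO-IMM 3 the counts became 5 below and 2 above. The members' median of the parent minus the mean of the 9 lines was -0.08 on the log2 scale, against -0.0064 for all genes. Of markers of other cell types, the macrophage gene Cd68 stood at 146 in the parent and 47.2 to 78.3 in the lines, while the other 4 leukocyte markers tested lay within the range of the lines. The summed intensity of the 10 leukocyte markers measured was 394 in the parent and 294 to 337 in the lines, and 249 against 247 to 259 without Cd68. Of 6 fibroblast and endothelial markers tested, the parent lay below all lines for 3 and above for 1: the pericyte and fibroblast gene Pdgfrb stood at 43.8 against 100.5 to 155, and the collagen gene Col1a2 at 57.8 against 38.6 to 54.6. The sum of the 7 measured was 262 against 318 to 367, and 219 against 207 to 222 without Pdgfrb. Their part in the parent's values was not tested.

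Genes that work beside the members differed in their place relative to the parent. The list of 12 peptide loading chaperones includes general folding genes of the endoplasmic reticulum. For 8 of the 12 the parent was below all lines, against 13.5% of all genes, and for 0 it was above. It lay within the range of the lines for 4, Tapbpl among them, and the median was -0.22. Calreticulin (Calr), which holds the empty heavy chain in the loading complex, stood at 2159 in the parent and 2713 to 3313 in the lines. The disulphide isomerase gene Pdia6 stood at 1785 against 2215 to 2813, and Hspa5, the general chaperone of the endoplasmic reticulum, at 576 against 701 to 986. Of 18 constitutive proteasome genes and activators, the parent was above all lines for 9, against 12.4% of all genes, and below for 1. The median was 0.11. Psmb5, whose product Psmb8 replaces in the immunoproteasome, stood at 388 in the parent and 317 to 346 in the lines, whereas Psmb6 and Psmb7, the counterparts of Psmb9 and Psmb10, lay within the range of the lines. Calr, Hspa5, Psmb5 and Psmb6 were picked for description after their values were seen.

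**Figure D3:**
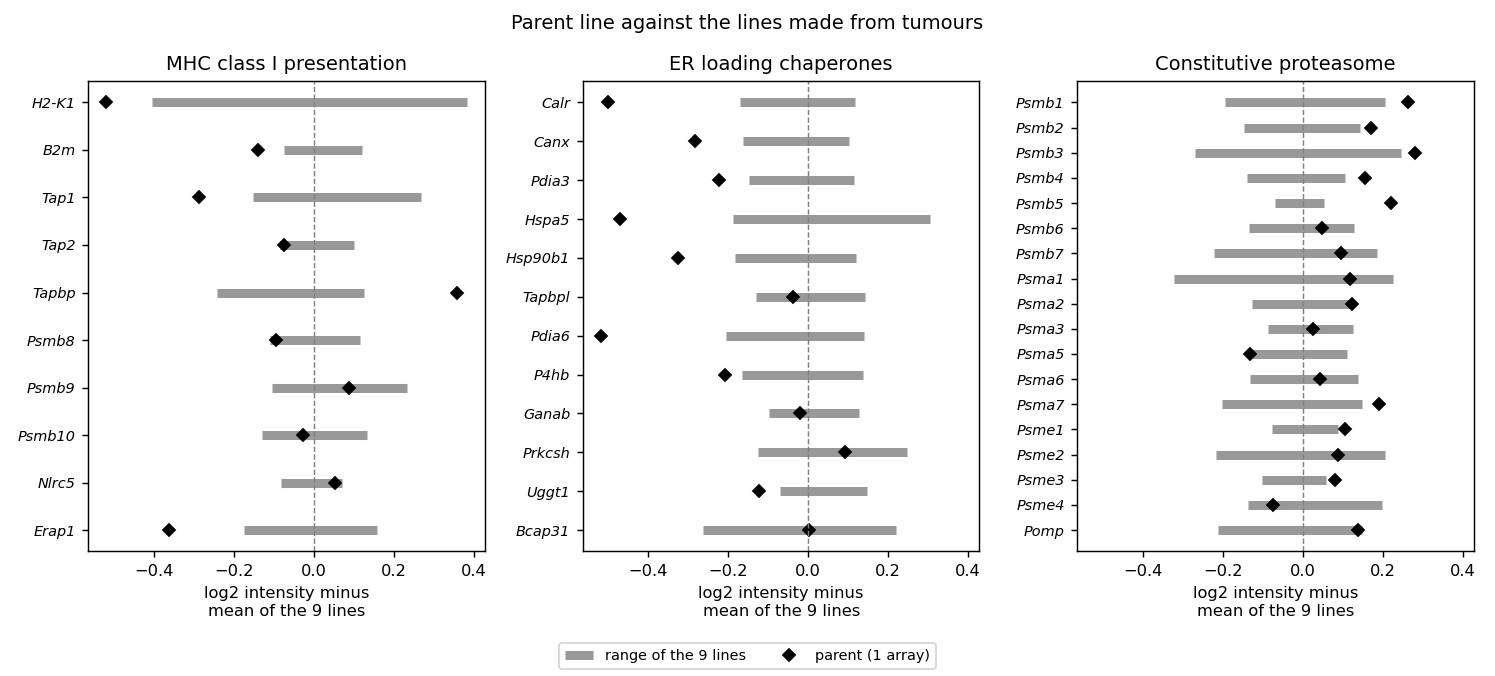
Log2 intensity minus the mean of the 9 tumour-derived lines (horizontal axis) for the class I members, the peptide loading chaperones and the constitutive proteasome genes; grey bars span the 9 lines and diamonds are the parent (1 array). The parent lies left of the bars for 4 of 10 members and 8 of 12 chaperones, and right of them for 9 of 18 proteasome genes. Over all genes tested it was below all 9 lines for 13.5% and above for 12.4%.

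Companion genes were read in the same comparisons between groups of tumour-derived lines. None of the 9 other class I heavy chain genes tested, of 20 listed and 13 measured, passed in any comparison; H2-D1, the other classical heavy chain gene here, shares its transcript cluster with H2-Q2 and was not analysed. Mr1, which presents vitamin metabolites, was at 0.34 ± 0.09 in IMM minus GKO-IMM (adjusted p = 0.0961), and H2-Q10, Cd1d1 and H2-Q1 had adjusted p-values from 0.521 to 0.738 there. Of the 12 chaperones 0 passed. Their median was 0.12 in IMM minus NIMM, against 0.02 for all genes, and 0.08 in IMM minus GKO-IMM, against 0.01. Bcap31, a sorting protein of the endoplasmic reticulum, was at 0.31 ± 0.08 in IMM minus GKO-IMM (adjusted p = 0.0834), and P4hb, Ganab and Pdia6 were at 0.18, 0.14 and 0.09. Of the 18 constitutive proteasome genes and activators 0 passed. Their median was 0.023 in IMM minus NIMM, against 0.018 for all genes, and 0.11 in IMM minus GKO-IMM, against 0.01. Psma1, a structural subunit, was at 0.27 ± 0.09 there and Pomp, the assembly chaperone, at 0.17 ± 0.07, while Psmb1 and Psmb7 were at -0.12 and 0.16.

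None of the 7 peptide trimming enzymes passed. Lnpep, an aminopeptidase of endosomes related to Erap1, stood at 482, 510 and 509 in the NIMM lines, 498, 520 and 481 in the IMM lines, and 590, 632 and 571 in the GKO-IMM lines. Its GKO-IMM lines lay above the other 6, an order whose share over all genes was not counted. The IMM minus GKO-IMM difference of Lnpep was -0.26 ± 0.06 (adjusted p = 0.0769), and Npepps, Thop1 and Lap3 were at 0.05, 0.27 and 0.19 there. Of 15 genes of class I silencing and turnover 0 passed; by the F test Pcgf1, a Polycomb subunit, came first, followed by Irgq, Derl1 and Tmem129, with adjusted p-values from 0.29 to 0.36. Of 6 MHC class II genes tested 0 passed, with H2-Ob at 0.36 ± 0.08 in IMM minus NIMM (adjusted p = 0.106) and Ciita, the class II transactivator and a relative of Nlrc5, at 0.19 ± 0.10; H2-DMb1 and H2-Eb1 were at 0.02 and -0.07. None of the 7 B16 markers, 5 leukocyte markers, 2 antigen-presenting cell markers or 6 fibroblast and endothelial markers tested passed.

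Among 17 transcription factor genes known to act on class I promoters, 1 passed, Nfyc. It did so in IMM minus GKO-IMM and in IMM minus the mean of both other groups, where 1.17% and 0.807% of all genes passed. Nfyc was the only gene of all the companion lists to pass, so its call is to be read against all of them and not this list alone. Nfyc encodes a subunit of NF-Y, the factor that binds CCAAT boxes such as those in the windows of H2-K1, B2m and Tap1 shown above. Such a box lay in 37.4% of all windows, and any effect of Nfyc on the members was not tested. Nfyc stood at 256, 254 and 234 in the NIMM lines, 277, 295 and 284 in the IMM lines, 218, 215 and 213 in the GKO-IMM lines and 273 in the parent. The 3 groups did not overlap, with IMM the highest and GKO-IMM the lowest. Between pairs of groups 18.6% to 25.8% of all genes did not overlap, and the share for all 3 groups at once was not counted. The parent lay between the NIMM and the IMM lines. Nfyc was higher in the IMM lines by 0.40 ± 0.06 against GKO-IMM (n = 3 lines per group, limma adjusted p = 0.00945) and by 0.30 against the mean of both other groups (adjusted p = 0.0222). Leaving out a line ended several of these calls and changed the difference little. Against GKO-IMM it ran from 0.38 to 0.42, with the call lost without GKO-IMM 2 (adjusted p = 0.0513) or GKO-IMM 3 (0.0667). Against the mean of both groups it ran from 0.28 to 0.32, with the call lost without any 1 IMM or GKO-IMM line (0.0588 to 0.113) and kept without NIMM 4 (0.0164). In GKO-IMM minus NIMM Nfyc did not pass at -0.20 ± 0.06 (adjusted p = 0.188), but it did without NIMM 4 (-0.24, adjusted p = 0.0359). Nfya, which encodes another NF-Y subunit, went the other way without passing, at -0.24 ± 0.06 in IMM minus NIMM (adjusted p = 0.139). The NF-kappaB gene Nfkb1 stood at 304, 343 and 477 in the NIMM lines, 330, 381 and 315 in the IMM lines, and 475, 475 and 492 in the GKO-IMM lines, a difference of -0.50 ± 0.14 in IMM minus GKO-IMM (adjusted p = 0.102). Rfxank, part of the RFX complex that works with Nlrc5, was at 0.19 ± 0.08 in IMM minus NIMM. Irf1, an IFN-γ-induced activator of class I genes, was picked after its values were seen. It stood at 83.0 in IMM 2 and between 51.1 and 62.0 in the other 8 tumour-derived lines.

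The members did not form a single pattern across the lines. Over the 45 pairs of members, Pearson's r of the log2 intensities of the 9 lines ran from -0.87 (Tapbp and Psmb8) to 0.72 (H2-K1 and B2m), with a median of 0.08 and 28 pairs above 0; these values are descriptions over lines that share groups. Tap1 and Psmb9, the divergent neighbours, were the 1 pair given a test. They had r = 0.14 (exact permutation p = 0.657, n = 9 lines) and Spearman's rho = 0.40 (exact permutation p = 0.291). The permutation takes no account of the groups that the lines share. Without IMM 1 and GKO-IMM 3, the lines farthest from the Tap1 median, r was 0.39. For Erap1 and Tapbp, the GKO-IMM lines and NIMM 4 were the 4 highest of the 9 lines, the order that Nfkb1 shared and that principal component 1 describes. H2-K1 did not follow it, since IMM 1 stood beside the highest line. Nor did the second, dimmer transcript cluster of Tapbp, with NIMM 4 at 52.6 and NIMM 1 at 55.7. Principal component 1 was drawn from all genes tested, these among them, and held 40.6% of the variance. The share of all genes with this order was not counted, so the order is not shown to be particular to these members.

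**Figure D4:**
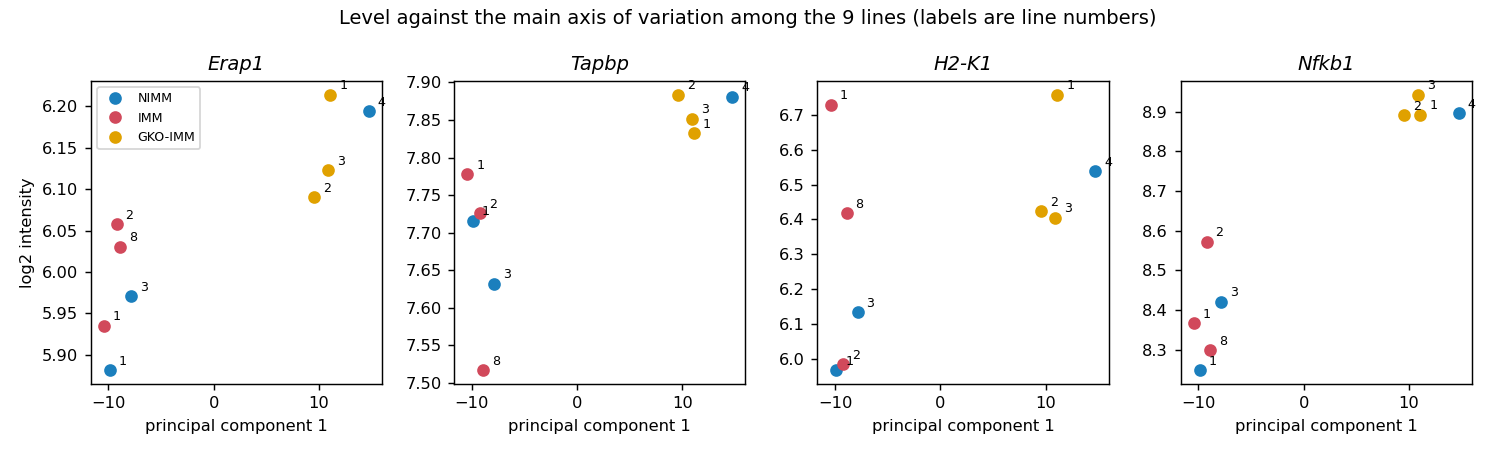
Log2 intensity (vertical axis) of Erap1, Tapbp, H2-K1 and Nfkb1 against principal component 1 of the 9 tumour-derived lines (horizontal axis, without unit); points are lines, labelled by number and coloured by group. NIMM 4 and the 3 GKO-IMM lines lie on the right and hold the highest values of Erap1, Tapbp and Nfkb1, while H2-K1 in IMM 1 stands high on the left. How many of all genes are highest in these same lines was not counted.

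The genes whose log2 intensities over the 9 lines were most like those of a member were given by Pearson's r, as a description over lines that share groups and array. For H2-K1 these were the zinc finger gene Zxda (0.97), the ubiquitin ligase gene Rnf181 (0.97), Scai (0.96), the sterol synthesis enzyme gene Cyp51 (0.96) and the chloride/proton exchanger gene Clcn3 (0.95). Cyp51 stood at 621, 660 and 762 in the NIMM lines, 827, 577 and 758 in the IMM lines, and 881, 808 and 751 in the GKO-IMM lines, with IMM 2 the lowest and GKO-IMM 1 the highest. For the other members the closest gene was Mocs3 for B2m (0.93), Dnah2 for Tap1 (0.92), Cir1 for Tap2 (0.96), Dennd1b for Tapbp (0.96), Sdc2 for Psmb8 (0.98), Ddx18 for Psmb9 (0.95), Arg1 for Psmb10 (0.95), Tmem238 for Nlrc5 (0.98) and Nfkbie, an inhibitor of NF-kappaB, for Erap1 (0.97). No member was the closest gene of another. Each gene was picked for its high r among all genes tested, over 9 lines, so high values follow in part from the choice. Arg1 (27.6 to 29.4 over the 9 lines) and Dnah2 (29.1 to 33.2) were dim, near the filter at 26.7.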

How the data were processed

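RNA of 10 lines was measured on 1 MoGene-2_0-st array each. Per the labels' protocols, total RNA was extracted with Trizol and labelled with biotin. Per the file headers, the deposited raw columns hold linear intensity values per transcript cluster, and the deposited normalized ones hold values on the log2 scale, which equalled log2 of the raw columns minus each cluster's median over the 10 arrays (largest difference 2.23e-06). How background was corrected and probes summarized is not given in the sources used here. Array annotation na33 and genome build mm10 are those of the submitters' processing notes.

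Log2 intensities were analysed with no further normalization, since array medians differed by at most 0.03. Of the 33793 transcript clusters, 24732 had exactly 1 symbol (2305 had several and 6756 none); symbols were updated through a RefSeq gene table (2240 clusters). The cluster with the highest mean over the 9 tumour-derived lines stood for each gene, and a mean under percentile 30 (a log2 intensity of 4.74) removed a gene. One limma 3.58.1 model (lmFit, then eBayes with neither trend nor robust) in R 4.3.3 took in the 9 lines, with 6 residual and 5.25 prior degrees of freedom and adjustment over all 16352 genes tested; the procedure was tested on simulated data. Tables and figures used Python 3.11.15, numpy 2.4.6, pandas 2.3.3 and matplotlib 3.10.9.

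The members and lists were chosen with earlier results of these data known. Named genes are the members, the genes of each companion list that passed and up to 4 with the smallest F test p, and the closest genes by Pearson's r (5 for H2-K1, 1 for each other member; predicted genes, microRNA and small nucleolar RNA genes passed over); exceptions are stated. The alternatives were quantile normalization, centred array medians, no filter, a percentile 50 filter, averaged clusters of a gene, every cluster, array weights, trend with robust priors, a fit on the compared groups alone, the line number as a block, 15 subtracted or 48 added before log2, and each line left out. Alternatives for the parent counts and Nfyc were added after the data were seen.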

Additional observations from a re-analysis of the deposited data

How the results depend on the processing

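Of the 1010 values of the 50 member differences under the alternatives, 47 changed sign, all for differences of at most 0.16 on the log2 scale, and 1 passed. The count of members that passed stayed at 0 in all 5 contrasts and the F test, with the exception below. The filter at percentile 50 left out Tap2, Psmb8, Psmb9 and Nlrc5, so it gave no value for them. The counts over all genes ranged from 13 to 167 for IMM minus NIMM, 30 to 1208 for IMM minus GKO-IMM, 5 to 1264 for GKO-IMM minus NIMM, 39 to 304 for IMM minus the mean of both, 9 to 371 for immunized minus naive and 32 to 1442 for the F test; the highest came without NIMM 4, except for IMM minus NIMM, where it came with array weights. Tap2, Psmb8, Psmb9 and Nlrc5 are dim, which limits what their differences can show.

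With the line number as a replicate block, 1 member passed in GKO-IMM minus NIMM, H2-K1 at 0.60 (adjusted p = 0.0345). The lines share only a number: the correlations of same-numbered lines' deviations ran from -0.13 to 0.12, and no pair of groups shares 3 numbers. NIMM 4 and IMM 8 have numbers of their own, so the block leaves them no weight in the differences. Under the block Tapbp and Erap1 were at 0.062 and 0.0755 in IMM minus NIMM, B2m and Psmb10 at 0.0472 and -0.0035 in GKO-IMM minus NIMM, and B2m and Nlrc5 at 0.0653 and 0.0128 in immunized minus naive; no other call on a member changed. The block ended the Nfyc call against the mean of both groups (0.27, adjusted p = 0.228), as did 15 subtracted before log2 (adjusted p = 0.0581), and array weights gave a call in GKO-IMM minus NIMM (-0.23, adjusted p = 0.0272).

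Other sign changes, whose cause was not tested, were Erap1 at 0.0063 with quantile normalization and 0.0463 with array weights and B2m at -0.0067 with centred medians in IMM minus NIMM; B2m at 0.0079 and Psmb10 at -0.0024 with array weights in GKO-IMM minus NIMM; H2-K1 at -0.0066 with centred medians in IMM minus the mean of both; and B2m at 0.0243 with array weights in immunized minus naive. Leaving out 1 line at a time, IMM minus NIMM ran from -0.0123 to 0.36 for H2-K1, -0.0445 to 0.0522 for B2m, -0.12 to 0.0088 for Tapbp, -0.0655 to 0.0311 for Psmb8 and -0.0745 to 0.0817 for Erap1. IMM minus GKO-IMM ran from -0.33 to 0.0439 for H2-K1, -0.0269 to 0.0698 for B2m and -0.0002 to 0.0636 for Psmb9. GKO-IMM minus NIMM ran from -0.0473 to 0.0186 for B2m and -0.0147 to 0.0719 for Psmb10. IMM minus the mean of both ran from -0.17 to 0.20 for H2-K1 and -0.0357 to 0.061 for B2m. Immunized minus naive ran from -0.0338 to 0.0321 for B2m, -0.0249 to 0.065 for Tap1, -0.0405 to 0.0051 for Tap2, -0.0337 to 0.0909 for Tapbp and -0.0071 to 0.15 for Erap1, and reached 0.40 for H2-K1 without NIMM 4. Members with the parent above all lines numbered 1 to 2, the latter without GKO-IMM 3, and the other parent counts stayed within 1 of their value.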
